A study of Gallus gallus with 21 samples.

Results

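Retinas of hens were compared after 6 days and after 1 day of wearing a lens of -10 dioptres in front of the eye. The comparison holds 9 of the 21 RNA sequencing libraries of the series, namely every library in which HINTW exceeded 10 CPM and whose title gives 6 days or 1 day of lens wear. HINTW is a gene of the W chromosome, which in birds only females carry, and CPM is the read count of a gene per 1000000 reads of its library. There were 5 such libraries of 6 days, with the codes L46L, L47R, L51L, L53R and L54L, and 4 of 1 day, L1R, L2L, L3R and L13L. Values by library below follow that order, and a change is the difference in mean log2(CPM + 1), 6 days minus 1 day, with its standard error. Of the 18631 listed genes, the 11054 with a mean of at least 1 CPM over the 9 libraries were tested. All 21 libraries are total RNA of the retina of wild-type White Leghorn chickens, depleted of ribosomal RNA, 7 for each of 1, 3 and 6 days of wear of a lens fitted at 3 days of age. Every bird wore a lens and no untreated retina enters, and the groups differ in the age of the birds as well as in the days of lens wear. The labels do not give sex, hour of collection or which libraries share a bird, so a hen is here a library with W transcripts and p-values measure only the spread between libraries, which may be technical.

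A minus lens moves the focal plane behind the photoreceptors, and the eye of a young chicken answers by growing longer until it is short-sighted, a model known as lens-induced myopia. The retina reads the defocus and sends growth signals outward to the choroid and sclera, and chick retina is also rich in cones, carries its own circadian clock and renews photoreceptor membrane each day. Hens have a Z and a W chromosome and cocks have a pair of Z chromosomes, and birds compensate only in part for the unequal dose of Z genes. Comparing hens with hens therefore holds the sex chromosomes fixed while the days of lens wear change.

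The libraries were chosen by the CPM of HINTW, which stood at 101 to 147 CPM in the 9 libraries. Summed over the 48 genes listed on W, HINTW included, the level was 604 to 700.4 CPM in them and 1.35 to 4.56 CPM in the 11 libraries of the series without W transcripts. From the commonest low CPM value, taken as the worth of 1 read, the 9 libraries were estimated at 34000000 to 43500000 reads, of which 10600000 to 14100000 fell on listed genes. Listed genes took 31.7 to 33.2% of the CPM scale in the 6 day hens and 30.7 to 31.1% in the 1 day hens. The median log2 change over all tested genes was accordingly 0.08, and 0.01 after median-of-ratios scaling, which divides each library by its median ratio to a common profile.

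A single 1 day library stood apart. On the first principal component, which held 37.97% of the variance, the 6 day libraries lay between 9.13 and 13.1 and the 1 day libraries L1R, L2L and L3R between -18.1 and -16.03, while L13L lay at -2.41. L13L also stood alone on the second component, at 19.98. It differed from the mean of the other 1 day libraries by at least 0.5 on the log2 scale in 711 genes, against 156 to 266 genes for each other library and its own group. The number in its code, 13, belongs to a set of higher numbers within the day (12 to 14 at 1 day, 51 to 55 at 6 days), and the meaning of these numbers is not given. L13L is the sole hen of that set at 1 day, beside 3 hens of 6 days, while the lower numbers hold 2 hens of 6 days and 3 of 1 day. Results that L13L moves most are therefore also given without it or as the change against L13L alone. That change sets the 3 hens of 6 days with higher code numbers, L51L, L53R and L54L, against L13L, a single 1 day library. L46L and L47R do not enter it.

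**Figure D1:**
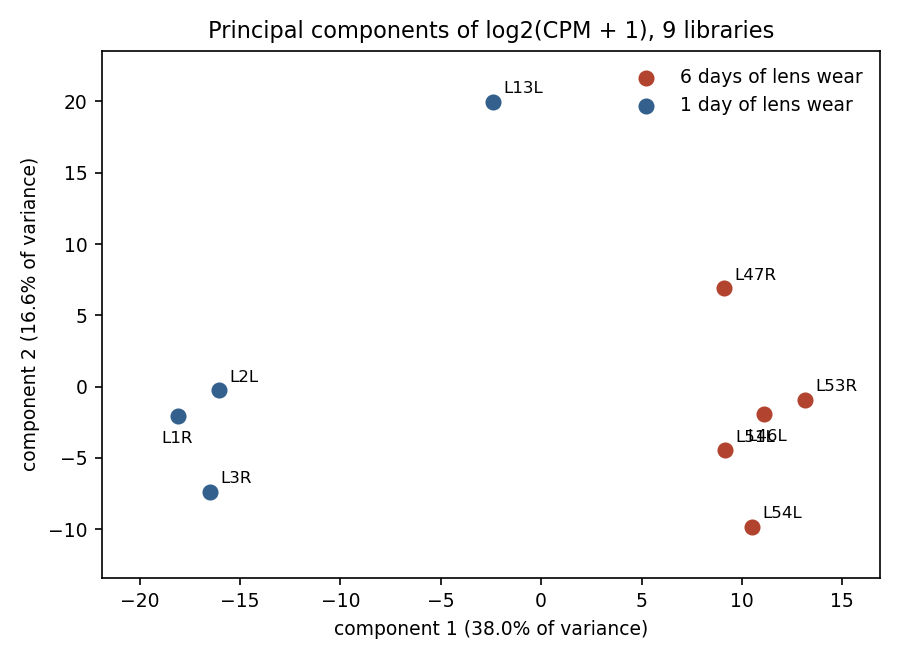
Positions of the 9 hen libraries on the first and second principal components of log2(CPM + 1), with 37.97% and 16.6% of the variance; each point is a library. The 5 libraries of 6 days sit together at the right, L1R, L2L and L3R of 1 day sit together at the left, and L13L of 1 day lies at -2.41 and 19.98, away from both.

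The first question was which transcripts of the hen retina differ between 6 days and 1 day of lens wear. Red and green cone opsin, the clock genes ARNTL and NFIL3, and some genes of chaperones, glycolysis and ribosomal proteins were higher at 6 days. The clock gene PER3, the retinol carrier gene RBP4 and the hormone-responsive gene KLF9 were lower. Genes of cone phototransduction went both ways, with 6 higher and 4 lower of 19 tested, opsins included. In all, 1572 of 11054 genes (14.2%) passed limma at a Benjamini-Hochberg adjusted p of 0.05, 1241 higher (11.2%) and 331 lower (2.99%) at 6 days. Most changes were small. The change was under 1.5-fold in 1355 of the genes, 1.5 to 2-fold in 191 and 2-fold or more in 26. In 989 of the 1241 genes and 231 of the 331 the libraries of the days did not overlap, and over all tested genes 12.2% lay wholly above and 3.27% wholly below. After median-of-ratios scaling 1182 genes passed (10.7%), split into 577 higher (5.22%) and 605 lower (5.47%), so the excess of higher genes depends on the scale. Without L13L 2239 genes passed (20.3%), 1563 higher (14.1%) and 676 lower (6.12%), and without L2L of 1 day 648 passed. Within the libraries of lower code numbers alone 785 passed (7.1%), 447 higher (4.04%) and 338 lower (3.06%).

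The genes of the red and green cone opsins rose, and those of the violet and blue opsins were too low to read. The red cone opsin gene OPN1LW, listed on an unplaced sequence, had 238, 176, 184, 151 and 253 CPM in the 6 day hens, against 97.2, 72.999, 87.8 and 78.95 CPM in the 1 day hens. All 5 libraries of 6 days were above all 4 of 1 day, L13L included. The change was 1.22 ± 0.15 (adjusted p = 0.00232), or 2.33-fold. The green cone opsin gene OPN1MSW had 84.9, 58.9, 73.99, 62.3 and 78.99 CPM at 6 days, against 51.5, 36.4, 36.5 and 30.5 CPM at 1 day, again without overlap, with a change of 0.89 ± 0.15 (adjusted p = 0.005300). The violet cone opsin gene OPN1SW was near the filter, at 1.96, 0.783, 1.21, 0.822 and 1.39 CPM at 6 days and 1.55, 1.06, 1.29 and 0.668 CPM at 1 day, with a change of 0.05 ± 0.16 (adjusted p = 0.853). The blue cone opsin gene OPN2SW was under the filter and was not tested. In bulk retina a change in the number of cells of a type and a change in RNA per cell cannot be told apart.

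The cone list moved in both directions. Of its 19 tested genes, 6 were higher and 4 lower, with a median of 0.10 beside 0.08 over all genes. The shares over all tested genes were 11.2% higher and 2.99% lower. GUCA1B, which activates the photoreceptor guanylate cyclase when calcium falls, had 38.4, 40.2, 43.7, 44.3 and 46.5 CPM at 6 days, against 27.9, 23.3, 27.6 and 25.4 CPM at 1 day, a change of 0.69 ± 0.08 (adjusted p = 0.00188). KCNV2, a potassium channel subunit of photoreceptor inner segments on chromosome Z, rose by 0.54 ± 0.11 (adjusted p = 0.0109), and the cone transducin genes GNAT2 and GNGT2 by 0.30 and 0.27 (adjusted p = 0.0347 and 0.0367), neither of which passed after median-of-ratios scaling. SLC24A4, a sodium, calcium and potassium exchanger, had 202, 194, 216, 201 and 208 CPM at 6 days, against 314, 301, 310.2 and 294 CPM at 1 day. Its 6 day libraries all lay below its 1 day libraries, with a change of -0.58 ± 0.06 (adjusted p = 0.00101). GRK7, the kinase that shuts off cone opsins, had 144, 144, 132, 136 and 143 CPM at 6 days and 215, 190.4, 187 and 177 CPM at 1 day, a change of -0.46 ± 0.07 (adjusted p = 0.00398). The cone phosphodiesterase gene PDE6C and the cone channel gene CNGA3 also fell, by 0.42 and 0.54 on the log2 scale (adjusted p = 0.0119 and 0.0262).

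Part of the rod genes rose and none fell past the test. Of 12 tested rod phototransduction genes 6 were higher and 6 did not pass, with a list median of 0.38, and 4 were higher after median-of-ratios scaling. Over all tested genes 11.2% were higher, and 5.22% after that scaling. CNGB1, a subunit of the rod cyclic nucleotide-gated channel, had 21.3, 15.5, 21.7, 19.5 and 23.3 CPM at 6 days and 10.8, 10.7, 11.2 and 11.9 CPM at 1 day, with a change of 0.80 ± 0.10 (adjusted p = 0.002597). Its partner subunit CNGA1 changed by 0.44 ± 0.12 (adjusted p = 0.0311) and the rod exchanger gene SLC24A1 by 0.70 ± 0.17 (adjusted p = 0.02302). CNGA1 did not pass after median-of-ratios scaling (adjusted p = 0.0644). SLC24A1 overlapped between the days, and its change was 0.30 within the lower code numbers (adjusted p = 0.243). The rod transducin genes GNAT1 and GNB1 passed as well (0.62 and 0.31, adjusted p = 0.0363 and 0.0363), but not without L13L (adjusted p = 0.0624 and 0.0562). Among those that did not pass, the phosphodiesterase gene PDE6B stood at -0.13 (adjusted p = 0.3001) and the arrestin gene SAG at 0.12 (adjusted p = 0.502).

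Among 19 genes of the photoreceptor outer segment and axoneme 5 were higher and 1 lower, with a median of 0.08, and 4 and 4 after median-of-ratios scaling. Over all tested genes 11.2% were higher and 2.99% lower, and 5.22% and 5.47% after that scaling. TULP1, which serves protein transport into the outer segment, had 57.3, 56.3, 63.6, 67.1 and 77.1 CPM at 6 days, against 45.1, 43.9, 42.9 and 37.7 CPM at 1 day. Its change was 0.58 ± 0.10 (adjusted p = 0.00548), and that of AIPL1, a cochaperone of phosphodiesterase, was 0.69 ± 0.13 (adjusted p = 0.00848). RP1, a microtubule protein of the axoneme, had 125, 154, 152, 157 and 161 CPM at 6 days and 252, 218, 238 and 184 CPM at 1 day. All of its 6 day libraries were below its 1 day libraries, and the change was -0.57 ± 0.10 (adjusted p = 0.00735), or -0.24 against L13L alone. Transcription factors of photoreceptors gave 3 higher and 1 lower of 15 tested genes, and 1 and 1 after median-of-ratios scaling. Beside the shares over all genes, such counts do not set this short list apart. PRDM1 (chromosome 3, 68347905 to 68446169), which favours photoreceptor over bipolar fate in the mouse, had 39.04, 36.8, 42.7, 40.2 and 32.6 CPM at 6 days, against 19.5, 17.01, 16.3 and 17.3 CPM at 1 day. The change of 1.08 ± 0.09 (adjusted p = 0.000310) had the lowest adjusted p of the named genes and was alike against L13L alone (1.10) and within the lower code numbers (1.07). THRB, the thyroid hormone receptor that directs green cone identity in the mouse, fell by 0.34 ± 0.07 (adjusted p = 0.0149). SIX3, a factor of early eye development, and MAFA rose by 0.45 and 0.29 (adjusted p = 0.03302 and 0.0451) and did not pass after median-of-ratios scaling.

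**Figure D2:**
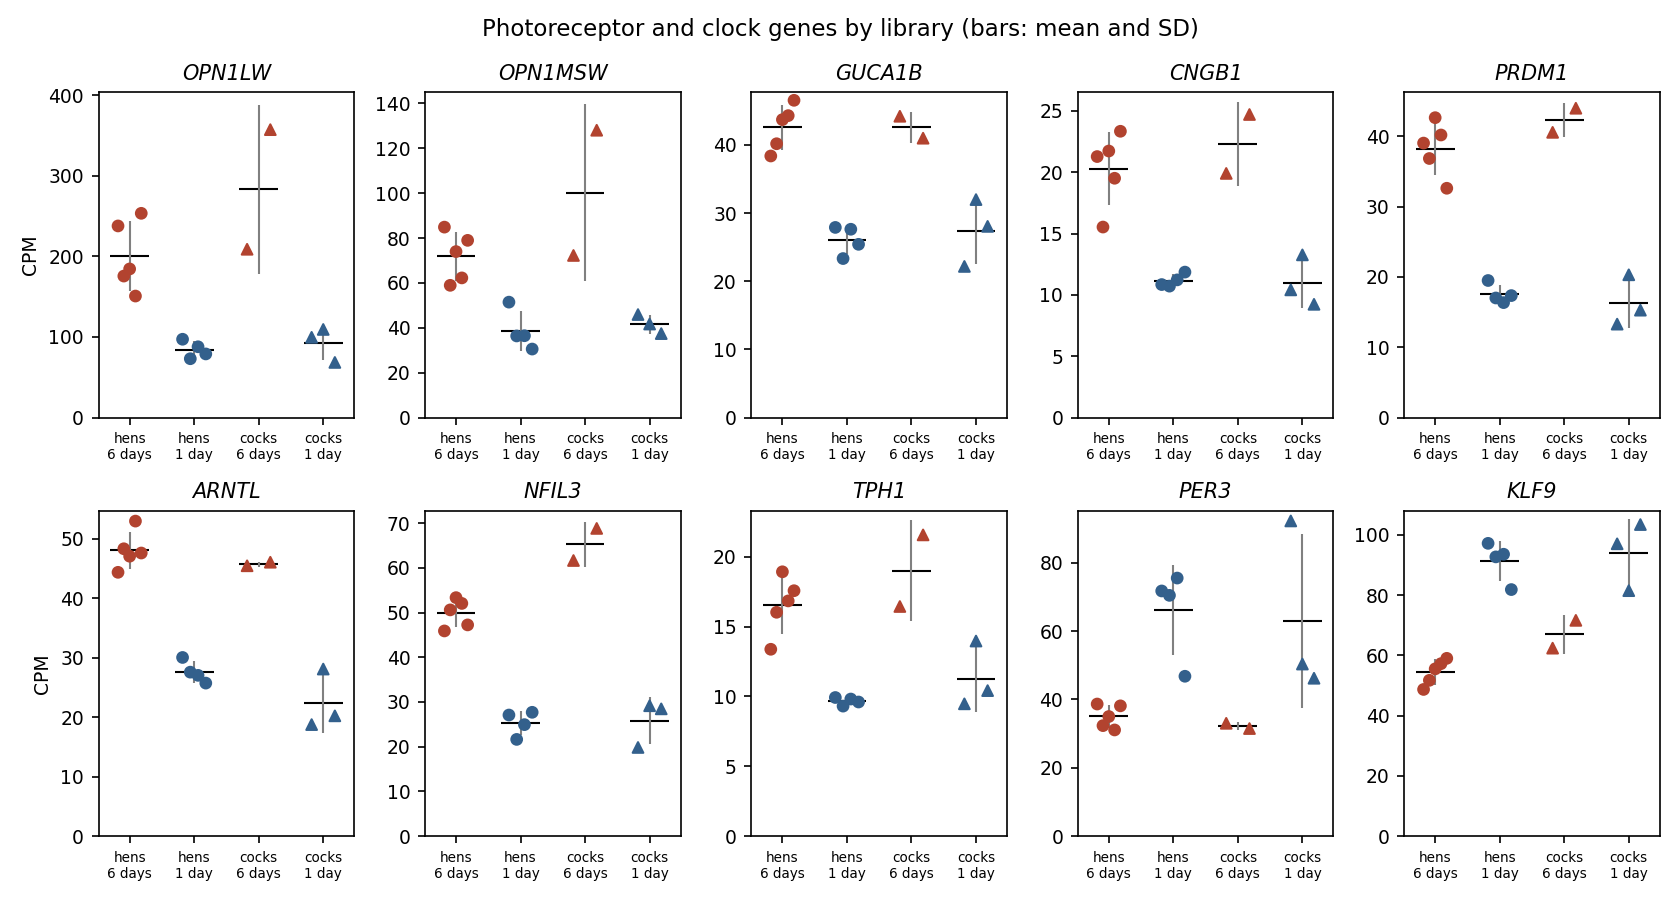
CPM of 10 genes in every library of hens and cocks at 6 days and 1 day; points are libraries, black bars means and grey bars SD (5, 4, 2 and 3 libraries). In hens OPN1LW, OPN1MSW, GUCA1B, CNGB1, PRDM1, ARNTL, NFIL3 and TPH1 lie wholly higher at 6 days, and PER3 and KLF9 wholly lower, with L13L as the low point of PER3 at 1 day.

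Clock genes of both phases of the cycle changed. The circadian clock is a loop in which ARNTL and CLOCK switch on genes such as PER and CRY, whose products then hold ARNTL and CLOCK back. Of 9 tested genes of the activator phase, 5 were higher and 1 lower (median 0.33), and of 10 tested genes of the repressor phase 1 was higher and 3 lower (median 0.05). All of these counts were the same after median-of-ratios scaling and without L13L. The lists go by phase and not by function, so the activator-phase list also holds the repressors CRY1 and NFIL3. Both lists were chosen with earlier results of these data known, so their counts are a description and not a test. Of all tested genes 11.2% were higher and 2.99% lower. The shares were 5.22% and 5.47% after median-of-ratios scaling, and 14.1% and 6.12% without L13L. ARNTL had 44.4, 48.3, 47.1, 52.999 and 47.6 CPM at 6 days, against 30.1, 27.6, 27.04 and 25.7 CPM at 1 day, a change of 0.78 ± 0.07 (adjusted p = 0.000709). NFIL3 (chromosome Z, 44356108 to 44370014), a repressor that competes for D-box elements, had 45.9, 50.6, 53.4, 52.1 and 47.3 CPM at 6 days, against 27.1, 21.6, 24.9 and 27.7 CPM at 1 day, a change of 0.95 ± 0.08 (adjusted p = 0.000593). Both genes separated the days in full. CLOCK and CRY1 rose less, by 0.33 ± 0.06 and 0.47 ± 0.09 (adjusted p = 0.00862 and 0.00912), and NPAS2, which can stand in for CLOCK, by 0.57 (adjusted p = 0.0272). RORA, a nuclear receptor that activates ARNTL, fell by 0.34 (adjusted p = 0.0114).

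PER3 (chromosome 21, 291189 to 310410) had 38.7, 32.3, 35.01, 31.1 and 38.1 CPM at 6 days, against 71.8, 70.5, 75.6 and 46.8 CPM at 1 day. L13L was the lowest of the 1 day libraries but still above every 6 day library. The change of PER3 was -0.88 ± 0.13 (adjusted p = 0.00361), -1.03 without L13L and -0.42 against L13L alone. NR1D2 and BHLHE41, which also act as repressors in the loop, fell by 0.34 ± 0.07 and 0.53 ± 0.11 (adjusted p = 0.0109 and 0.0112). CRY4, a cryptochrome found in birds and fishes among others, rose by 0.60 ± 0.15 (adjusted p = 0.02399). PER2 overlapped between the days, at 194, 179.6, 178, 172 and 154 CPM at 6 days and 165, 152, 151 and 204 CPM at 1 day (change 0.07, adjusted p = 0.661). A second listed entry of NR1D1, which encodes a haem-binding repressor, had 18.6, 10.2, 14.2, 10.8 and 14.2 CPM at 6 days and 6.88, 4.94, 6.39 and 4.43 CPM at 1 day. This second entry rose by 1.12 ± 0.17 (adjusted p = 0.00337) and is not in the repressor-phase list, while the first entry was under the filter. TPH1, which starts serotonin and hence melatonin synthesis in chick photoreceptors, had 13.4, 16.03, 18.9, 16.8 and 17.6 CPM at 6 days, against 9.92, 9.31, 9.81 and 9.603 CPM at 1 day, a change of 0.71 ± 0.09 (adjusted p = 0.00253). It was the sole gene past the test among 14 of serotonin, melatonin and dopamine, beside 14.2% of all tested genes. Without L13L 3 of the 14 passed, beside 20.3% of all. The melatonin enzymes AANAT and ASMT had changes of 0.26 and 0.25 (adjusted p = 0.0703 and 0.0661). Part of a difference in clock genes can come from the hour of collection, which the labels do not give, and its part in the result was not tested.

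Retinoid and hormone genes changed singly. RBP4 (chromosome Z, 53612243 to 53617574), a carrier of retinol, had 156, 128, 156, 115 and 134 CPM at 6 days, against 231, 219.9, 230.2 and 176 CPM at 1 day. The 6 day libraries lay below the 1 day libraries, with a change of -0.63 ± 0.11 (adjusted p = 0.00664). It was the 1 gene of 13 in the visual cycle list that passed, beside 14.2% of all tested genes. None of that list rose past the test, while 2 were lower without L13L, beside 6.12% of all tested genes. Of 9 genes of retinoic acid signalling, which is known to change in the chick eye during altered growth, the receptor gene RARB and CYP1B1, an enzyme that can make retinoic acid, were higher, by 0.44 ± 0.08 and 0.51 ± 0.08 (adjusted p = 0.00771 and 0.00481). Of all tested genes 11.2% were higher. The synthetic enzyme genes ALDH1A1, ALDH1A2 and ALDH1A3 had changes of -0.15, -0.02 and -0.07 (adjusted p = 0.261, 0.943 and 0.778). KLF9 (chromosome Z, 35029425 to 35045192), a transcription factor induced by thyroid hormone and glucocorticoids, had 48.7, 51.7, 55.5, 57.2 and 58.999 CPM at 6 days, against 97.2, 92.7, 93.5 and 81.8 CPM at 1 day. It separated the days in full and fell by 0.74 ± 0.08 (adjusted p = 0.00117). With THRB it made up the 2 of 12 genes of thyroid and glucocorticoid response that fell, and 0 rose, with 3 lower without L13L. Over all tested genes 11.2% were higher and 2.99% lower, and 6.12% were lower without L13L. The glucocorticoid targets FKBP5 and TSC22D3 did not pass, with -0.32 (adjusted p = 0.337) and 0.08 (adjusted p = 0.553).

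Of 17 tested ligands and receptors tied to eye growth, IGF2 alone passed, beside 14.2% of all tested genes. Without L13L 1 was higher and 1 lower, and after median-of-ratios scaling 2 were lower. Over all tested genes 14.1% were higher and 6.12% lower without L13L, and 5.47% were lower after that scaling. IGF2, an insulin-like growth factor, had 7.82, 9.4001, 6.73, 8.75 and 7.68 CPM at 6 days, against 14.4, 12.9, 9.46 and 11.6 CPM at 1 day, and fell by 0.52 ± 0.12 (adjusted p = 0.0177). BMP7 and TGFB2 had changes of 0.31 and -0.05 (adjusted p = 0.0611 and 0.813). EGR1, the immediate early gene ZENK whose amacrine cell expression follows the sign of defocus in chicks, had 5.68, 6.87, 4.86, 5.54 and 2.55 CPM at 6 days and 8.16, 6.81, 10.4 and 7.65 CPM at 1 day. The groups overlapped at L47R and L2L, and the change of -0.64 ± 0.20 missed the threshold (adjusted p = 0.0546) but met it after median-of-ratios scaling (adjusted p = 0.0489). None of 10 immediate early genes passed limma, beside 14.2% of all tested genes, so a count of 0 does not set this short list apart. Of the 10, 2 had an unadjusted limma p under 0.05 and a lower level at 6 days. Over all 11054 tested genes 3502 had such a p in either direction. With trend and robust settings 0 of the 10 passed. In the WNT list the receptor gene FZD5 rose by 0.47 (adjusted p = 0.0282, and 0.11 against L13L alone) and the antagonist gene DACT1 fell by 0.70 (adjusted p = 0.03901). The fall of DACT1 rests on the lower code numbers, since L13L at 10.3 CPM lay within the 6 day libraries at 7.597, 10.04, 13.02, 10.01 and 10.2 CPM.

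Some chaperone genes were higher at 6 days, and several of these were as high in L13L as at 6 days. Of 26 tested chaperones of cytosol and mitochondria 10 were higher and 1 lower (median 0.28), 4 and 2 after median-of-ratios scaling, and 18 and 1 without L13L. The shares over all tested genes were 11.2% and 2.99%, 5.22% and 5.47%, and 14.1% and 6.12%. HSPA8 (chromosome 24, 3102900 to 3107843), the constitutive HSP70, had 540.2, 532, 493, 569 and 396 CPM at 6 days, against 151, 236, 283 and 521 CPM at 1 day. L13L lay among the 6 day libraries and the other 1 day libraries lay below all of them. The change was 0.90 ± 0.27 (adjusted p = 0.0495) with L13L and 1.21 without it (adjusted p = 0.00268), and -0.12 against L13L alone. HSP90AA1, the inducible HSP90, followed the same pattern with 553, 628, 511, 675 and 412 CPM at 6 days and 214, 266, 300.2 and 599.6 CPM at 1 day. It passed without L13L, with a change of 1.09 (adjusted p = 0.00231), and not with it, with 0.78 ± 0.25 (adjusted p = 0.0604). HSPA2, a close paralog of HSPA8 that may share reads with it, changed by 0.96 ± 0.20 (adjusted p = 0.0123), and the HSP90 activator AHSA1 by 0.51 ± 0.11 (adjusted p = 0.0142). L13L lay inside the 6 day range of both, and their changes were 0.21 and 0.11 against L13L alone and 1.18 and 0.62 without it. STIP1, which hands clients from HSP70 to HSP90, had 4.68, 3.69, 2.56, 2.997 and 3.05 CPM at 6 days and 1.396, 1.86, 2.402 and 2.104 CPM at 1 day, a change of 0.57 ± 0.14 (adjusted p = 0.0225). BAG3, a cochaperone of HSP70 in autophagy, was less tied to L13L. It had 10.1, 10.2, 10.7, 9.96 and 9.61 CPM at 6 days and 3.66, 4.83, 6.15 and 6.14 CPM at 1 day, a change of 0.87 ± 0.12 (adjusted p = 0.002597), and 0.63 against L13L alone. HSP90AB1, the constitutive HSP90, was the member that fell, with a change of -0.50 (adjusted p = 0.0282) that was -0.03 against L13L alone.

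RSRP1, an arginine and serine rich protein gene of little known function, split the 1 day hens in the same way. It had 197, 187, 162, 185 and 118 CPM at 6 days, against 46.7, 54.9, 66.5 and 167 CPM at 1 day, with L13L again inside the 6 day range. Its change was 1.18 ± 0.31 (adjusted p = 0.0306), 1.57 without L13L and -0.13 against L13L alone. COX17, a copper chaperone of cytochrome oxidase, had 15.5, 18.7, 10.3, 10.8 and 15.3 CPM at 6 days and 4.52, 5.7001, 6.15 and 13.8 CPM at 1 day, and a change of 0.90 ± 0.26 (adjusted p = 0.0422) that was -0.19 against L13L alone. In cocks of 1 day HSPA8 also differed by code number and stood at 334 CPM in L4L, the library of the lower numbers, and at 484 and 563 CPM in L12R and L14R. What the code numbers stand for, and its part in these results, was not tested.

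The calls among chaperones of the endoplasmic reticulum depended less on that library. Of 21 tested genes 11 were higher, 10 did not pass and 0 were lower (median 0.33), 8 after median-of-ratios scaling and 12 without L13L. The shares higher over all tested genes were 11.2%, 5.22% and 14.1% in these settings. The size of the rise did vary. The list median was 0.41 within the lower code numbers, beside 0.04 over all tested genes, and 0.15 against L13L alone, beside 0.13. In this list 14 genes were higher at an unadjusted p under 0.05, and 0 were lower. HSPA5 (chromosome 17, 9890854 to 9894907), the chaperone BiP, had 63.03, 71.2, 63.5, 66.8 and 55.6 CPM at 6 days, against 31.7, 35.7, 30.3 and 46.6 CPM at 1 day. L13L was the highest 1 day library and stayed below all of the 6 day libraries, and the change was 0.83 ± 0.12 (adjusted p = 0.00322), or 0.40 against L13L alone. CALR, a lectin chaperone that also stores calcium, had 64.6, 70.98, 64.2, 73.3 and 68.4 CPM at 6 days and 36.04, 36.7, 32.1 and 48.5 CPM at 1 day, a change of 0.83 ± 0.11 (adjusted p = 0.002597). HYOU1, a stress-induced HSP70 of the reticulum, and P4HB, a disulfide isomerase, rose by 0.58 ± 0.07 (adjusted p = 0.00228) and 0.46 ± 0.08 (adjusted p = 0.00642). The stress transcription factor genes ATF4 and ATF6 had changes of 0.10 and 0.17 (adjusted p = 0.448 and 0.234).

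**Figure D3:**
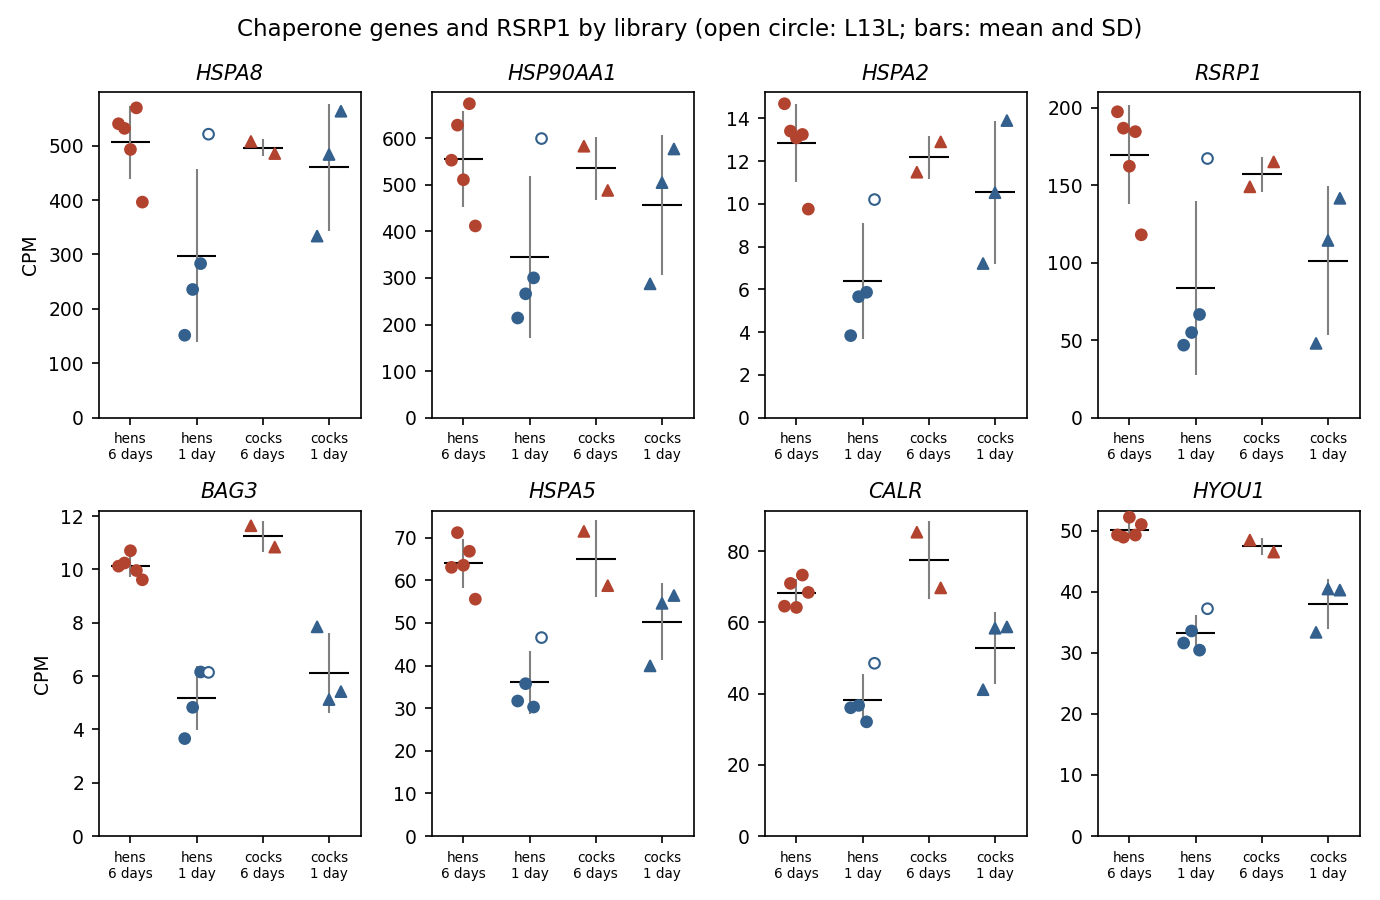
CPM of 7 chaperone or cochaperone genes and RSRP1 in every library of hens and cocks at 6 days and 1 day; points are libraries, the open circle is L13L, black bars means and grey bars SD. For HSPA8, HSP90AA1 and RSRP1 the open circle lies among the 6 day hens, while for BAG3, HSPA5, CALR and HYOU1 all 1 day hens lie below all 6 day hens.

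Part of the glycolytic genes rose. Of 22 tested genes of glycolysis and lactate transport 11 were higher, 11 did not pass and 0 were lower (median 0.29). After median-of-ratios scaling 4 were higher and 2 lower. The shares over all tested genes were 11.2% higher, and after that scaling 5.22% higher and 5.47% lower. The retina turns much glucose into lactate even with oxygen present. ALDOC, the aldolase of neural tissue, had 353, 289, 299.5, 288 and 353 CPM at 6 days, against 184, 171, 214 and 216 CPM at 1 day, without overlap and with a change of 0.69 ± 0.10 (adjusted p = 0.00322). HK1, the hexokinase of neurons, had 141, 132, 139, 144 and 160.03 CPM at 6 days and 99.6, 104, 111 and 98.97 CPM at 1 day, a change of 0.47 ± 0.07 (adjusted p = 0.00398). HK2, a photoreceptor hexokinase, rose by 0.43 ± 0.11 (adjusted p = 0.0273), PFKFB3, which makes an activator of glycolysis, by 0.51 ± 0.10 (adjusted p = 0.0104), and the enolase gene ENO2 by 0.46 ± 0.11 (adjusted p = 0.0206). ALDOC, HK1, PFKFB3 and ENO2 also passed after median-of-ratios scaling, and HK2 did not (adjusted p = 0.0641). EGLN3 (chromosome 5, 35913745 to 35941733), an oxygen-sensing prolyl hydroxylase that is itself induced by low oxygen, had the largest rise of the named genes. It had 15.6, 18.996, 32.2, 19.6 and 40.5 CPM at 6 days, against 11.3, 5.33, 5.36 and 12.3 CPM at 1 day, a change of 1.46 ± 0.30 (adjusted p = 0.0126), or 2.76-fold. Of 16 tested genes of the hypoxia response 3 were higher and 0 lower (median 0.25), and 4 and 2 without L13L. The shares over all tested genes were 11.2% and 2.99%, and 14.1% and 6.12% without L13L, so these counts do not set the short list apart. Past the test with EGLN3 were P4HA1, a collagen prolyl hydroxylase, at 0.61 ± 0.12 (adjusted p = 0.0116) and ARNT, the partner of the hypoxia-inducible factors, at 0.33 ± 0.10 (adjusted p = 0.0439). Against L13L alone the changes of P4HA1 and ARNT were 0.16 and 0.08, and without it 0.75 and 0.39. VEGFA had a change of 0.34 (adjusted p = 0.0585).

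Some genes of protein synthesis and turnover rose by small amounts, and lists differed in the share that did. Of 71 tested cytosolic ribosomal protein genes 34 were higher, 37 did not pass and 0 were lower (median 0.32), and 21 were higher after median-of-ratios scaling. The shares higher over all tested genes were 11.2%, and 5.22% after that scaling. RPL13 had 57.001, 49.3, 52.4, 50.1 and 56.2 CPM at 6 days, against 35.9, 36.2, 34.4 and 39.4 CPM at 1 day, a change of 0.53 ± 0.07 (adjusted p = 0.002597), and RPL3, RPLP0 and RPS4X changed by 0.48, 0.45 and 0.45 (adjusted p = 0.00398, 0.00481 and 0.00509). RPS19, listed on an unplaced sequence, stood out with 23.2, 27.8, 14.1, 16.2 and 28.5 CPM at 6 days and 7.61, 7.33, 5.77 and 14.7 CPM at 1 day and a change of 1.24 ± 0.26 (adjusted p = 0.0123). L13L and L51L overlapped in that gene, and the change against L13L alone was 0.33. Whether ribosomal protein genes share reads with other copies was not tested. Mitochondrial ribosomal protein genes gave 13 higher and 0 lower of 65 (median 0.14), of which 2 passed after median-of-ratios scaling, MRPS34 at 0.51 ± 0.08 (adjusted p = 0.00359) and MRPL33 at 0.41 ± 0.10 (adjusted p = 0.0196). MRPL12 and MRPL24 passed on the deposited scale (0.45 and 0.49, adjusted p = 0.0277 and 0.0309), with 0.18 and 0.14 against L13L alone. Respiratory chain and ATP synthase genes gave 5 higher and 0 lower of 68, a smaller share than the 11.2% higher of all tested genes. Without L13L 11 were higher, beside 14.1% of all genes, and 1 passed after median-of-ratios scaling, ATP5O, a part of ATP synthase, at 0.33 ± 0.07 (adjusted p = 0.0112). NDUFB6 of complex I, SDHA of complex II and UQCR10 of complex III changed by 0.31, 0.25 and 0.50 (adjusted p = 0.0174, 0.0481 and 0.0464), UQCR10 by -0.05 against L13L alone. Proteasome subunits gave 9 higher and 0 lower of 30 (median 0.18) and 5 after it, with PSMB3 at 0.47 ± 0.09 (adjusted p = 0.00872) and PSMD2 at 0.45 ± 0.10 (adjusted p = 0.0141). Splicing regulators gave 9 higher and 0 lower of 34, 3 and 1 after that scaling and 14 and 1 without L13L. The shares over all tested genes were 11.2% and 2.99%, 5.22% and 5.47%, and 14.1% and 6.12%. RBM5, which steers splicing of cell death genes, had 156, 139.6, 125, 144 and 138 CPM at 6 days, against 81.2, 79.04, 87.8 and 122 CPM at 1 day, a change of 0.61 ± 0.12 (adjusted p = 0.0103) that was 0.15 against L13L alone. CIRBP, an RNA-binding protein induced by cold, had 166, 155, 180.1, 181 and 176 CPM at 6 days, against 125, 121, 117 and 109 CPM at 1 day, with no overlap and a change of 0.54 ± 0.07 (adjusted p = 0.002597), and TARDBP rose by 0.39 ± 0.08 (adjusted p = 0.0112).

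Cholesterol genes had no stable direction. Of 21 tested genes 3 were higher (SREBF2, FDFT1 and FDPS), beside 11.2% of all tested genes. Another 2 were lower (ABCA1 and INSIG1), beside 2.99%, and the list median was -0.06. Without L13L 0 were higher and 6 lower, and after median-of-ratios scaling 0 were higher and 2 lower. The shares over all tested genes were 14.1% and 6.12% without L13L, and 5.22% and 5.47% after that scaling. The median was -0.26 within the lower code numbers and 0.22 against L13L alone. ABCA1, which exports cholesterol from cells, had 8.92, 9.32, 9.55, 7.73 and 8.83 CPM at 6 days, against 19.3, 14.2, 15.7 and 8.79 CPM at 1 day. L13L lay among the 6 day libraries, and the change of -0.61 ± 0.17 (adjusted p = 0.0375) was -0.02 against L13L alone. FDFT1, squalene synthase, had 28.99, 26.02, 29.9, 31.8 and 32.4 CPM at 6 days and 22.9, 25.6, 25.5 and 19.7 CPM at 1 day, a change of 0.34 ± 0.09 (adjusted p = 0.0363) that did not pass without L13L (adjusted p = 0.0513).

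The remaining genes named for large changes, among those with a symbol and an average of 10 CPM or more, came from several processes. MICAL2 (chromosome 5, 8239155 to 8361101), an enzyme that oxidises actin filaments, had 25.98, 44.7, 34.8, 35.5 and 39.8 CPM at 6 days, against 13.5, 14.6, 16.3 and 20.2 CPM at 1 day. It separated the days in full, with a change of 1.11 ± 0.15 (adjusted p = 0.002597). SPARCL1, a secreted matrix protein of glia, had 46.1, 42.8, 28.01, 43.3 and 49.2 CPM at 6 days and 28.3, 15.03, 16.4 and 30.3 CPM at 1 day, and rose by 0.91 ± 0.22 (adjusted p = 0.0225) although L51L lay below L13L and L1R, with 0.36 against L13L alone. It was among 3 of 17 tested extracellular matrix genes that rose, with TIMP2 at 0.50 ± 0.12 (adjusted p = 0.0227) and LAMC1 at 0.43 ± 0.11 (adjusted p = 0.0295). Beside 11.2% of all tested genes that count does not set the list apart. After median-of-ratios scaling 2 were higher, beside 5.22% of all tested genes. TIMP2 inhibits metalloproteinases and LAMC1 is a chain of laminin. Among the named genes, which include genes under that average where a list holds them, the largest fall was that of ITPRIP, which encodes an interactor of the inositol trisphosphate receptor. It had 7.45, 7.36, 6.55, 6.21 and 7.52 CPM at 6 days, against 17.3, 14.5, 13.6 and 11.9 CPM at 1 day, a change of -0.93 ± 0.10 (adjusted p = 0.00126), or 1.90-fold lower. CLEC3A, a C-type lectin gene known from cartilage, had 32.6, 23.6, 30.7, 20.5 and 25.4 CPM at 6 days and 56.1, 53.9, 53.9 and 36.9 CPM at 1 day, a change of -0.89 ± 0.15 (adjusted p = 0.006004). TLR5, the receptor for bacterial flagellin, had 7.38, 7.302, 6.35, 7.93 and 7.73 CPM at 6 days and 14.8, 15.3, 14.8 and 8.56 CPM at 1 day. In both genes L13L was the lowest 1 day library yet above the 6 day libraries, and the change of TLR5 was -0.75 ± 0.15 (adjusted p = 0.00916), or -0.20 against L13L alone. AGPAT9L fell by 0.70 ± 0.11 (adjusted p = 0.00481). PDGFRL had 8.94, 5.82, 9.58, 7.88 and 8.55 CPM at 6 days and 18.4, 12.4, 13.5 and 9.26 CPM at 1 day, with L13L inside the 6 day range. Its change was -0.63 ± 0.17 (adjusted p = 0.0349), -0.78 without L13L and -0.09 against L13L alone.

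The lists of markers of other retinal neurons are short beside the 11.2% of all genes called higher and 2.99% called lower, so a count of 0 does not set a list apart. None of 14 bipolar, 8 horizontal and 13 ganglion cell genes passed limma, with 2, 1 and 2 of them at an unadjusted p under 0.05 and 1, 0 and 0 past the test with trend and robust settings. Without L13L, 3 bipolar and 1 horizontal cell genes passed, beside 20.3% of all tested genes. Of 14 amacrine cell genes 1 was higher and 3 lower. CHAT, which makes acetylcholine, rose by 0.44 ± 0.07 (adjusted p = 0.00373). The peptide gene CCK fell by 0.57 and the vesicular transporter gene SLC32A1 by 0.31 (adjusted p = 0.00778 and 0.0479), SLC32A1 with a change of -0.13 against L13L alone. GFAP, an intermediate filament of reactive Müller cells and astrocytes, had 3.65, 4.64, 4.06, 4.91 and 7.35 CPM at 6 days, against 2.74, 1.36, 2.58 and 1.81 CPM at 1 day, and rose by 0.92 ± 0.18 (adjusted p = 0.00917). The other Müller genes did not pass, with GLUL at 0.08 and RLBP1 at 0.18 (adjusted p = 0.613 and 0.252). The myelin gene MBP stood at -0.06 (adjusted p = 0.849). Of 29 axon guidance genes 3 were higher and 1 lower, of 25 synaptic genes 2 and 1, of 30 potassium channel genes 2 and 0, and of 14 cell division genes 1 and 0. After median-of-ratios scaling these lists had 1 and 1, 0 and 1, 1 and 2, and 0 and 1. The shares over all tested genes were then 5.22% and 5.47%. Without L13L the lists had 2 and 1, 3 and 2, 1 and 2, and 1 and 2, beside 14.1% and 6.12%. UNC5C, a netrin receptor, rose by 0.39 ± 0.08 (adjusted p = 0.0141), and SEMA3E, a repulsive guidance cue, fell by 0.25 ± 0.06 (adjusted p = 0.0246). UNC13B and RIMS2, which prime synaptic vesicles, rose by 0.27 and 0.26 (adjusted p = 0.0225 and 0.0303), and the vesicle protein gene VAMP2 fell by 0.29 (adjusted p = 0.03997). The potassium channel genes past the test were KCNV2, given above, and KCNA2 (0.29, adjusted p = 0.0372, and 0.0506 without L13L), and the cell division gene was PCNA (0.25, adjusted p = 0.02898).

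The few tested markers of cells outside the neural retina were not called. Their lists had 11 listed genes of retinal pigment epithelium, 15 of lens, 15 of microglia and leukocytes, 10 of endothelium, 12 of connective tissue, 3 of red blood cells and 6 of muscle, of which 3, 5, 3, 3, 4, 0 and 1 reached the filter. None of these 19 was called, beside 14.2% of all tested genes. An unadjusted limma p under 0.05 was found in 5 of them, beside 3502 of all 11054 tested genes. With trend and robust settings 0 were called, beside 1801 of all. So few genes cannot show that the share of such cells was the same on both days. Summed pigment epithelium markers stood at 31.9 to 40.8 CPM at 6 days and 28.4 to 32.9 CPM at 1 day, lens markers at 20.3 to 25.7 CPM at 6 days and 20.2 to 22.7 CPM at 1 day, and connective tissue markers at 24.3 to 28.2 CPM at 6 days and 23.7 to 28.8 CPM at 1 day. Endothelial markers stood at 53.5 to 69.8 CPM at 6 days and 54.8 to 64.3 CPM at 1 day and microglial markers at 9.96 to 14.1 CPM at 6 days and 8.88 to 12.3 CPM at 1 day. Muscle markers stood at 47.98 to 73.9 CPM at 6 days and 42.2 to 55.7 CPM at 1 day, and their 1 tested gene had a change of 0.32 and an unadjusted p under 0.05. The lens crystallin gene ASL1 was at 0 in all 9 libraries. Red blood cell markers summed to at most 0.0882 CPM in the 6 day and 0.0919 CPM in the 1 day hens. The part of other cells in the results was not tested.

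**Figure D4:**
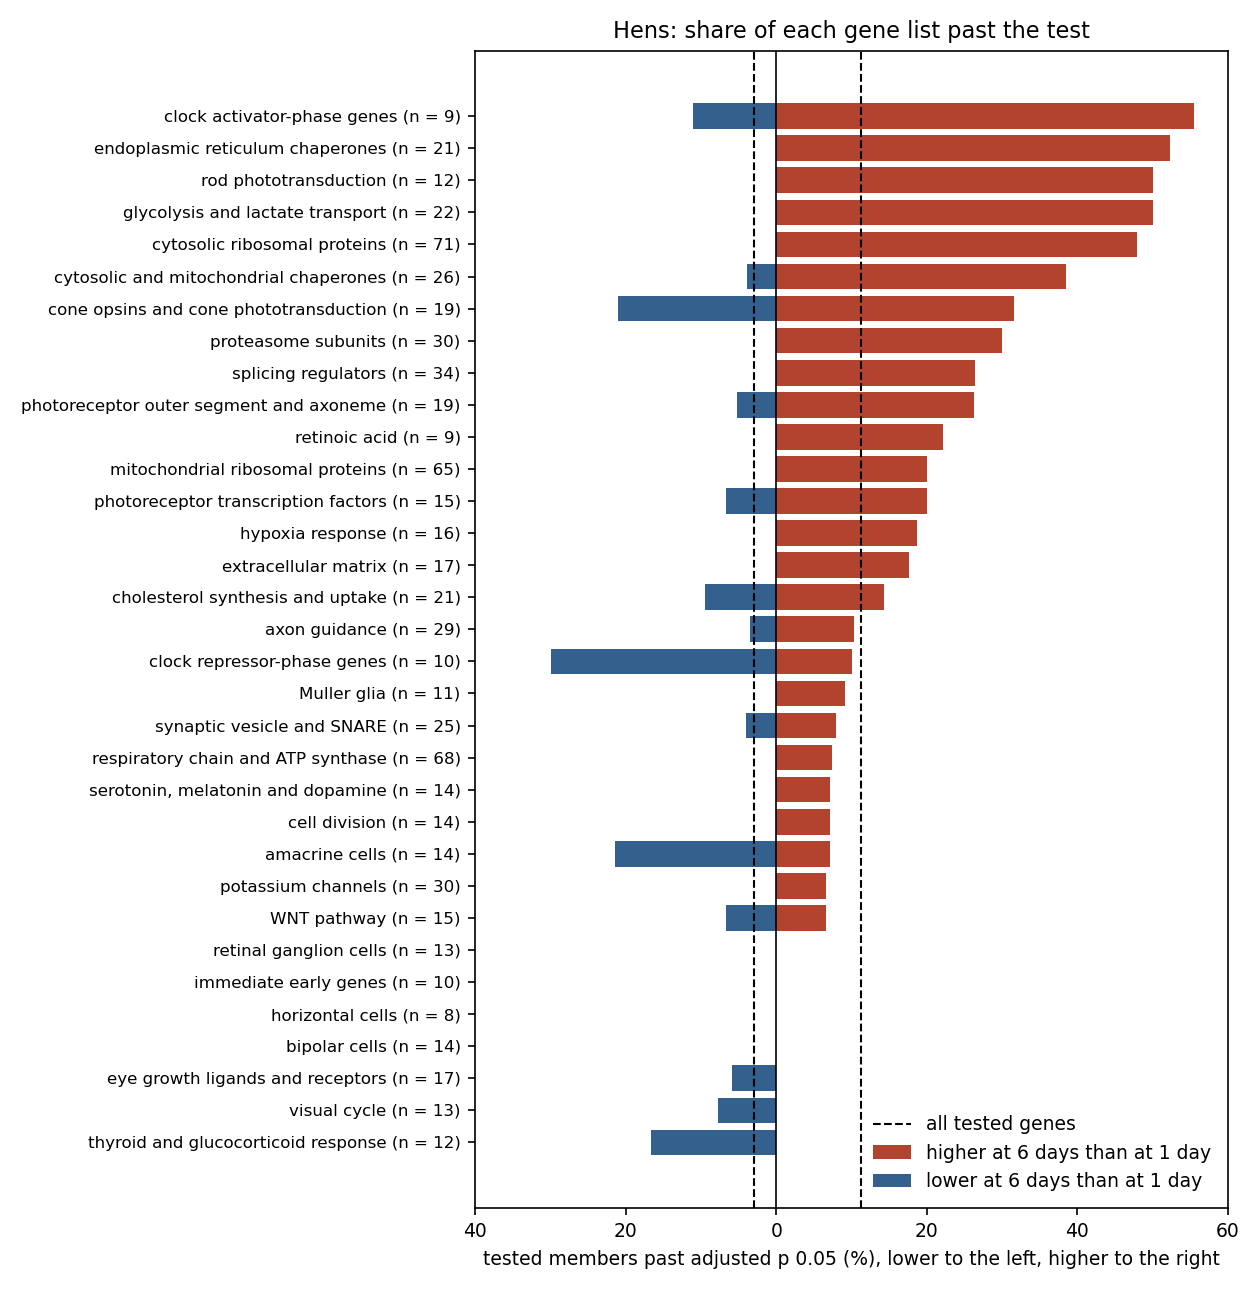
Share of the tested members of each gene list past an adjusted p of 0.05 in hens, in percent, higher at 6 days to the right and lower to the left; lists with at least 8 tested members are shown with that number, and dashed lines mark the shares over all tested genes, 11.2% higher and 2.99% lower. Clock activator, endoplasmic reticulum chaperone, rod, glycolysis and cytosolic ribosomal protein lists have the longest bars to the right, and clock repressor, amacrine and cone lists the longest to the left. The lists were chosen with earlier results of these data known.

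With the sex chromosomes held fixed, Z genes could be read by day. Of 542 tested Z genes 48 were higher (8.86%) and 28 lower (5.17%), with a median of 0.04. Of the 10481 genes on autosomes or unplaced sequences 11.4% were higher and 2.88% lower, with a median of 0.08. After median-of-ratios scaling 23 Z genes were higher and 44 lower, beside 553 and 560 genes on autosomes or unplaced sequences. The shares over all tested genes were then 5.22% higher and 5.47% lower. Among called Z genes with a symbol and averaging 10 CPM or more, those with the largest rises after NFIL3 were CHRNB3, IQGAP2, NADK2 and KCNV2, and those with the largest falls were KLF9, RBP4, ABCA1, NEDD4L and PCGF3. CHRNB3 (chromosome Z, 53700853 to 53711758), a nicotinic receptor subunit, had 63.1, 64.1, 62.6, 69.9 and 73.5 CPM at 6 days, against 40.5, 40.2, 42.1 and 41.9 CPM at 1 day. The days were far apart beside a narrow spread within each, L13L included, and the change was 0.68 ± 0.07 (adjusted p = 0.000940). IQGAP2, a scaffold protein of the cytoskeleton, had 51.3, 58.3, 52.9, 61.99 and 58.1 CPM at 6 days and 36.4, 30.5, 32.3 and 44.5 CPM at 1 day, a change of 0.65 ± 0.11 (adjusted p = 0.00488). NEDD4L, a ubiquitin ligase for membrane channels, had 24.9, 23.02, 26.5, 23.4 and 24.1 CPM at 6 days and 44.4, 29.995, 35.98 and 32.99 CPM at 1 day, and fell by 0.52 ± 0.10 (adjusted p = 0.00983). PCGF3, a Polycomb subunit, fell by 0.41 ± 0.09 (adjusted p = 0.0188), and by 0.10 against L13L alone.

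W genes were called at about the share of all genes. HINTW itself had 132, 117, 134, 138 and 147 CPM at 6 days, against 125, 101, 114 and 115 CPM at 1 day, with overlap and a change of 0.23 ± 0.08 (adjusted p = 0.0856). The gene chose the libraries but not the days. Of 31 tested W genes 3 were higher (9.68%) and 1 lower (3.23%), beside 11.2% and 2.99% of all tested genes, with a median of 0.08 in both. SMAD2W, the W copy of a TGF-beta signal transducer, had 14.8, 16.8, 16.5, 18.9 and 16.05 CPM at 6 days and 11.8, 11.8, 11.9 and 15.3 CPM at 1 day, a change of 0.37 ± 0.09 (adjusted p = 0.0274), and SPIN1W, the W copy of a histone reader, had 18.5, 15.97, 18.96, 16.5 and 18.1 CPM at 6 days and 21.9, 25.3, 21.9 and 19.1 CPM at 1 day, a change of -0.30 ± 0.09 (adjusted p = 0.0407). Against L13L alone their changes were 0.15 and -0.09. After median-of-ratios scaling SPIN1W passed (adjusted p = 0.01603) and SMAD2W did not (adjusted p = 0.0821), and the 1 W gene still called higher was LOC112530494 (adjusted p = 0.0471). W genes have close copies on Z, and how reads shared by both copies were counted was not tested. In the libraries without W transcripts the 48 listed W genes summed to 1.35 to 4.56 CPM.

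The same contrast was then taken in the libraries without W transcripts, which the choice of hens left out, with 2 cock libraries of 6 days (L48L and L55R) and 3 of 1 day (L4L, L12R and L14R). Over the same 11054 genes 1 passed limma (0.00905%) and 1752 had an unadjusted p under 0.05. The direction seen in hens was nevertheless common in cocks. Of the 1241 genes higher in hens 96.9% had a positive change in cocks, against 70.8% of all tested genes, and of the 331 lower genes 89.7% had a negative change, against 29.2% of all. Across genes the changes of hens and cocks had a Pearson r of 0.67 and a Spearman rho of 0.63, as a description of genes that are not independent, with no library shared. OPN1LW had 209 and 357 CPM in the 6 day cocks, against 99.5, 109 and 68.4 CPM in the 1 day cocks, PRDM1 40.6 and 43.99 CPM against 13.3, 20.3 and 15.3 CPM, and NFIL3 61.7 and 68.8 CPM against 19.8, 29.2 and 28.5 CPM. In these 3 genes the cock libraries separated by day as the hen libraries did. PER3 had 33.02 and 31.5 CPM in the 6 day cocks, against 92.3, 50.4 and 46.2 CPM in the 1 day cocks, where L4L of the lower code numbers was the high value, as L1R, L2L and L3R were in hens.

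Whether the change itself differed between hens and cocks was tested with an interaction term over the 14 libraries. It called 0 of 11054 genes (0.0%), with 387 at an unadjusted p under 0.05 and 0 called with trend and robust settings. Hence no gene is shown to change in hens otherwise than in cocks, and equally the data do not show that the changes are alike. SMIM20, picked after its values were seen, and CHRNB3 were among the genes with the lowest adjusted p. CHRNB3 had 72.2 and 81.6 CPM in the 6 day cocks, against 70.6, 72.7 and 71.3 CPM in the 1 day cocks. Its change was 0.10 in cocks and 0.68 in hens, a difference of 0.58 ± 0.11 (adjusted p = 0.444). In this gene the 1 day hens were the group that stood below the rest. SMIM20, a small membrane protein gene, had 6.25, 6.29, 5.94, 7.15 and 5.897 CPM in the 6 day hens, against 3.73, 5.47, 4.16 and 5.197 CPM in the 1 day hens, and 3.08 and 2.81 CPM in the 6 day cocks, against 4.94, 5.198 and 5.51 CPM in the 1 day cocks. Its mean was above that of 1 day in hens and below it in cocks, with a difference of 1.04 ± 0.15 (adjusted p = 0.102).

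**Figure D5:**
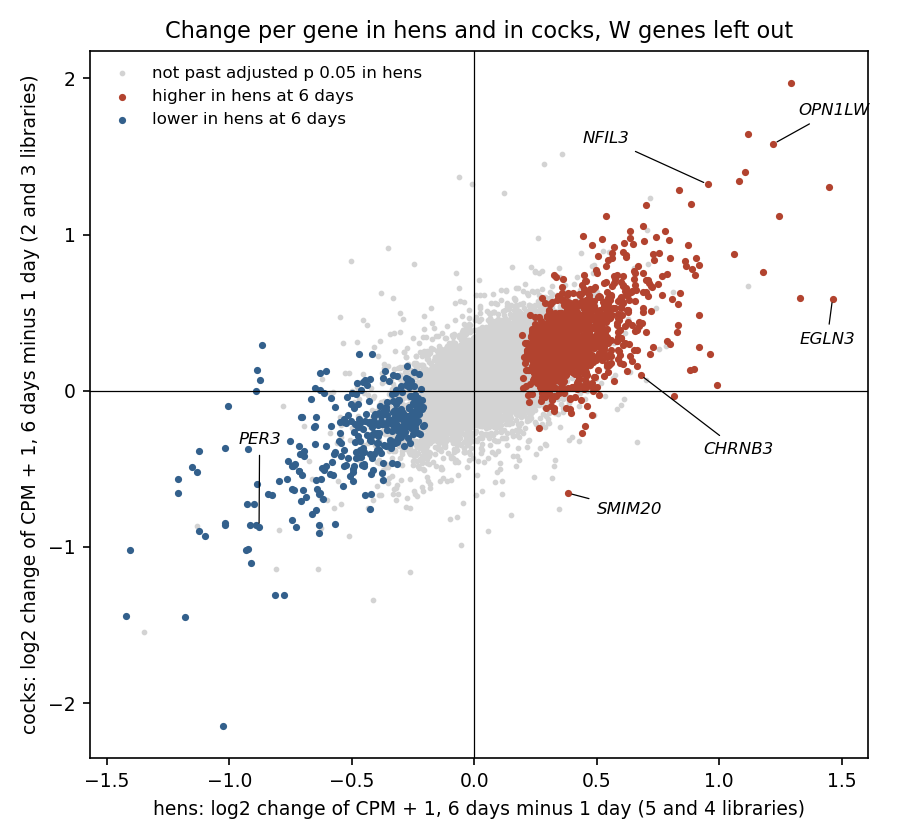
Log2 change of CPM + 1, 6 days minus 1 day, in hens (horizontal, 5 and 4 libraries) and in cocks (vertical, 2 and 3 libraries), a point per tested gene with W genes left out; red and blue points passed an adjusted p of 0.05 in hens. Most coloured points lie in the upper right and lower left, while CHRNB3 lies near 0 in cocks and SMIM20 lies below it.

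The series holds a single hen library of 3 days of lens wear, L29L, and its values carry no error. Of the 1241 genes higher at 6 days than at 1 day, L29L lay between the group means in 776, beyond the 1 day mean in 377 and beyond the 6 day mean in 88. Of the 331 lower genes it lay between the means in 224, beyond the 6 day mean in 81 and beyond the 1 day mean in 26. Genes thus differed in where L29L lay beside the group means, which in 1 library cannot be told apart from spread between libraries. In L29L, ARNTL stood at 47.4 CPM and TPH1 at 21.8 CPM, within and above the 6 day hens. OPN1LW at 85.7 CPM and HSPA5 at 27.5 CPM were within or below the range of the 1 day hens. PRDM1 at 26.2 CPM, NFIL3 at 40.8 CPM and KLF9 at 67.1 CPM lay between the days. RBP4 at 55.8 CPM and ITPRIP at 2.63 CPM lay far below both, since the lowest 6 day hens had 115 and 6.21 CPM. In the 6 cock libraries of 3 days RBP4 had a median of 77.4 CPM, with 51.05 as the lowest and 95.2 as the highest, and ITPRIP a median of 7.47 CPM, from 5.22 to 11.03.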

How the data were processed

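Total RNA of 21 retinas was sequenced with stranded, rRNA-depleted libraries, per the labels' protocols. STAR, Partek and the build GRCg6a are named in the submitters' processing notes without versions. The authors deposited 1 table of CPM for 18631 genes, to which 0.0001 had been added, and this constant was subtracted here. Listed genes sum to 30.3 to 33.3% of the CPM scale, and the sources used here do not say what the rest of the denominator is. Gene positions are those of the table, and whether its starts count from 0 or 1 is not given there. Of the listed genes, 15419 matched RefSeq symbols, which served only to name chromosomes. The commonest low CPM value of each library, taken as a step of 1 read, gave about 30800000 to 49300000 reads per library. Only 94.4 to 95.3% of the low values fell within 0.1 of a whole number of steps, so reads were not recovered and no count test was run.

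Libraries were divided by HINTW at 10 CPM, and a threshold of 1 CPM gave the same division of all 21. Genes averaging 1 CPM or more over the 9 hen libraries were compared with limma 3.58.1 in R 4.3.3 on log2(CPM + 1), without covariates, with Benjamini-Hochberg adjustment over all 11054 genes and a threshold of 0.05. Every adjusted p in the text is from limma. A fold change on this scale understates that of low genes. The same genes were fitted in the cock libraries and, with an interaction term, in all 14 libraries of 1 and 6 days. The scripts were tested on simulated data. Named genes were the 12 largest rises and falls past the threshold with a mean of at least 10 CPM, the 4 lowest adjusted p-values of each list, 5 rises and falls on Z, and a fixed set. A few genes that this rule takes are not reported here. Other list members were named after their values were seen. The members and lists were chosen with earlier results of these data known. Alternatives covered pseudocount, filter, scaling, variance model, code letter, code numbers, pooled fits and each library left out. Promoter motifs were not analysed here.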

Additional observations from a re-analysis of the deposited data

Results flagged for a closer look

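Within the hen groups of 4 or 5 libraries, 11 of the 224 groups of values had a library at the end of the range whose gap to the next exceeded Dixon's 95% critical value, where chance gives about 1 in 20. In 5 of the 11 this library was L13L of 1 day. CLEC3A stood at 36.9 CPM in L13L, against 53.9 to 56.1 CPM in the other 1 day hens. PER3 stood at 46.8 CPM there, against 70.5 to 75.6 CPM, and TLR5 at 8.56 CPM, against 14.8 to 15.3 CPM. AHSA1 stood at 16.1 CPM in L13L, above 11.2 to 11.8 CPM in the others, and SMAD2W at 15.3 CPM, above 11.8 to 11.9 CPM. The myelin gene MBP stood at 107 CPM in L1R, below 144 to 152 CPM in the other 1 day hens.

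The remaining 5 were in the 6 day hens. The proteasome gene PSMD1 stood at 39.3 CPM in L47R, against 42.7 to 43.7 CPM in the others. SPARCL1 stood at 28.0 CPM in L51L, against 42.8 to 49.2 CPM. RP1 stood at 125 CPM in L46L, against 152 to 161 CPM, and HSPA2 at 9.75 CPM in L54L, against 13.1 to 14.7 CPM. KCNV2 stood at 21.7 CPM in L53R, above 16.8 to 18.1 CPM in the others.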

How the results depend on the processing

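The 1572 calls between 6 and 1 day in hens became 792 with a covariate for the code set, 785 within the lower code numbers and 2 against L13L alone, and ranged from 648 to 2239 when each library was left out. The count was 2239 without L13L, 648 without L2L, 800 without L1R, 974 without L3R, 1040 without L46L, 965 without L53R and 970 without L54L. The 1241 higher genes became 577 under median-of-ratios scaling, 617 with listed genes scaled to 1 total, 639 with the code set, 447 within the lower numbers and 1 against L13L alone, and 523 to 1563 with a library left out. The 331 lower genes became 605, 539 and 153 under the first 3 of these and 1 against L13L alone, 676 with L13L dropped from the 1 day hens, and 125 to 676 with a library left out. In cocks the 1 call became 0 with a pseudocount of 0.1 or 5, no filter, the code letter or set, or any library left out, 4 with a filter of 10 CPM, 23 with trend and robust settings and 268 with all 21 libraries in the fit. The interaction gave 0 to 1 calls with a library left out, the 1 arising without L2L and without L55R. The setting of L51L, L53R and L54L against L13L alone was chosen after seeing the data. In it RSRP1 (-0.13), COX17 (-0.19), HSPA8 (-0.12), UQCR10 (-0.0497) and DACT1 (0.0904) changed sign among the named genes past the threshold. Named genes that did not pass, HSP90AA1 and PER2 among them, are left out of this list. The cause of these differences was not tested. Under the other settings no gene past the threshold changed sign among the 112 named, while PER2, MBP and OPN1SW, which did not pass, changed sign in at least 1. Under those settings, which leave out the change against L13L alone, 70 of the 112 within the lower code numbers to 109 with a pseudocount of 5 kept their side of the threshold. No paired analysis was possible because the labels give the groups no shared replicate numbers.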
